A study of Danio rerio with 6 samples.

Results

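The Iroquois genes are the zebrafish genes whose symbol is irx followed by a digit. All 11 such identifiers among the 32266 genes of the deposited tables were taken, and they are described here in wild-type (WT) embryos and in maternal-zygotic smad4a mutants (MZsmad4a) at 50% epiboly, when the blastoderm has covered 50% of the yolk, around the onset of gastrulation. The family was chosen because 1 IRX3 copy (ENSDARG00000101076) stood 2nd by p among all genes that were higher in MZsmad4a embryos in this same comparison. The difference of that copy is therefore given as a description, with no p. The gene table names some members by the symbol of the human gene, so that IRX1 and IRX3 each stand for 2 identifiers. RefSeq also lists 11 irx genes, with irx1a and irx1b and with irx3a and irx3b, but the tables do not tell which identifier is which, and these copies are named by identifier. IRX4 and IRX5 are irx4a and irx5a by elimination, since irx4b and irx5b carry their own symbols, and RefSeq has a single irx2 copy (irx2a) and a single irx6 copy (irx6a).

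Iroquois proteins are transcription factors with a homeodomain of the TALE class, in which extra residues lengthen a loop, and with a short motif of their own, the Iro box. In most vertebrates they lie in clusters of neighbouring genes and act in early neural patterning, among other places. In zebrafish, irx7 and an irx1 copy act together in the region of the midbrain-hindbrain boundary, and in Xenopus an Iroquois protein represses Bmp4 as the neural plate forms. BMP signals, which reach the genome through Smad1/5 and Smad4, restrict neural fates to the dorsal side.

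Each of the 6 libraries, 3 per genotype, came from 25 pooled whole embryos of the Tubingen strain. MZsmad4a embryos carry on both alleles a small CRISPR/Cas9 deletion in the linker region of smad4a, which shifts the reading frame, and their mothers lacked the gene as well. Mutant and WT embryos thus had different parents, and genotype and parentage cannot be told apart. The library totals lay between 9807865 and 20833491 expected counts, the lowest being WT replicate 1, and smad4a fell from 59.3 ± 4.02 to 14.3 ± 1.13 CPM (expected counts scaled by library size and composition; SD, n = 3 each). None of the 20 markers of enveloping layer, yolk syncytial layer, margin, ectoderm and germ plasm was at 0 in any library. Their summed levels overlapped between the genotypes except for the 5 margin and mesendoderm markers, at 1264 to 1556 CPM in WT and 722 to 999.5 CPM in MZsmad4a embryos. Most of that sum is tbxta and tbx16, with 573.8 and 564.7 CPM in WT and 387.4 and 366.8 CPM in the mutants. Neither was called (adjusted p = 0.0646 each, edgeR's test). The paper described the levels of tbxta as equivalent and of tbx16 as unaffected. Of these 20 markers, tbx16l, a T-box gene of the margin, and foxi1, a forkhead gene of ventral ectoderm, were called lower (log2 fold changes -2.49 and -1.92). The call is an adjusted p under 0.01 in edgeR's test, where 0.49% of all tested genes were lower and 0.223% higher. At 0.05 (1.67% lower and 1.26% higher), mxtx2 of the yolk syncytial layer was also lower, at 2.29 against 0.307 CPM (-2.88, adjusted p = 0.0286). sox19a of the ectoderm was higher (0.43, adjusted p = 0.0235). The summed level of the yolk syncytial layer does not show the change of mxtx2, which is its least abundant marker. DESeq2's Wald test called 1 marker lower in each of margin, ectoderm and yolk syncytial layer, and 1 higher in ectoderm (1.94% lower and 1.78% higher over all genes). Whether these marker differences bear on the Iroquois levels was not tested. In pools of whole embryos, more cells that express a gene and more RNA per cell cannot be told apart.

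At 50% epiboly, 3 of the 11 genes made up nearly the whole family. irx7, IRX1 (ENSDARG00000056594) and IRX3 (ENSDARG00000101076) together held between 98.5% and 99.5% of the summed Iroquois TPM (a share of all transcripts, and so a level per length of transcript) in the 6 libraries. These were also the 3 genes with 10 counts or more in every library. In WT embryos the order of levels was irx7, IRX1, IRX3, and no library of one of these genes overlapped those of the next. irx7 had 75.9, 84.0 and 77.8 TPM in WT replicates 1, 2 and 3, IRX1 had 38.7, 32.5 and 32.1 TPM, and IRX3 had 5.01, 4.88 and 4.84 TPM. Among the 15720 genes that could be tested, whose median was 10.2 TPM in WT, irx7 lay above 87.0% of the genes, IRX1 above 74.6% and IRX3 above 35.6%. irx7 and IRX1 were thus well expressed in WT embryos and IRX3 was below the median gene.

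**Figure D1:**
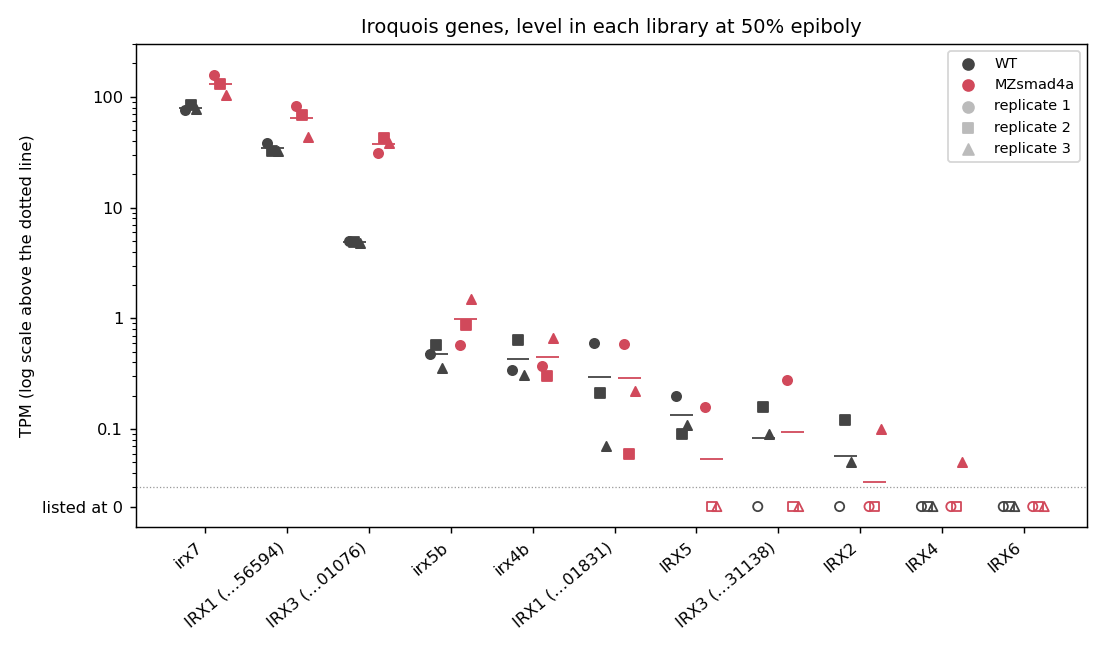
TPM of each of the 11 Iroquois genes (x axis, ordered by the WT mean) in each library (y axis, log scale, with values of 0 drawn as open symbols below the dotted line); colour gives the genotype, symbol shape the replicate number and short lines the group mean. irx7, IRX1 (ENSDARG00000056594) and IRX3 (ENSDARG00000101076) lie far above the other 8 genes, of which the highest value is 1.5 TPM.

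The family as a whole was higher in MZsmad4a embryos. The summed TPM of the 11 genes was 121.2, 123.2 and 115.7 in WT replicates 1, 2 and 3 and 274.6, 241.3 and 187.8 in MZsmad4a replicates 1, 2 and 3. That is 120.0 ± 3.87 against 234.6 ± 43.8 TPM (SD, n = 3 each), a ratio of 1.95. Every mutant sum was above every WT sum, and the mutant libraries differed among themselves far more than the WT libraries did. The sum contains the IRX3 copy that led to the choice of the family, and no test was made of it. The remaining 8 genes had a summed level of 0.99 to 1.8 TPM in WT and of 1.24 to 2.54 TPM in MZsmad4a embryos, so their ranges overlapped.

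**Figure D2:**
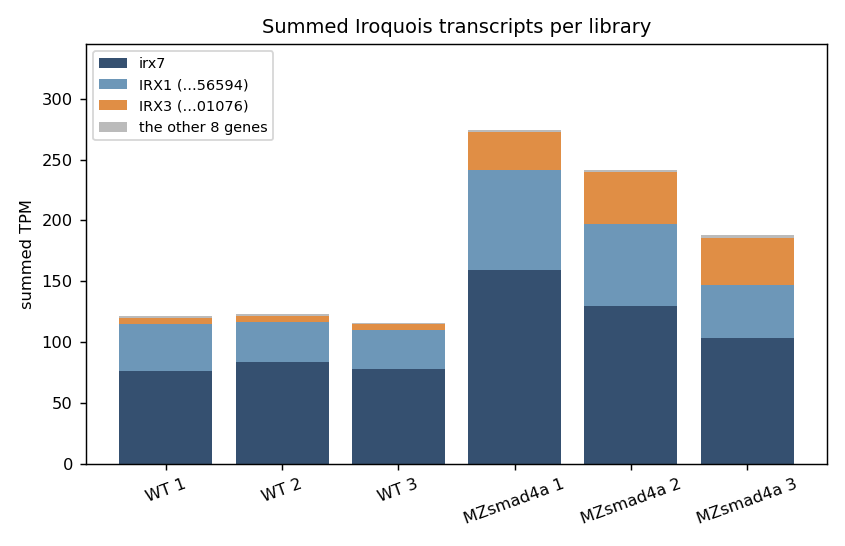
Summed TPM of the Iroquois genes (y axis) in each of the 6 libraries (x axis), stacked by gene, with the 8 genes outside the leading 3 drawn together. The WT bars reach 115.7 to 123.2 TPM and the MZsmad4a bars 187.8 to 274.6 TPM, and the IRX3 segment grows from between 3.96% and 4.18% to between 11.3% and 20.2% of the bar.

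IRX3 (ENSDARG00000101076), related to Irx3 of chick and mouse, which helps to divide the neural tube into progenitor domains, had the largest difference of the family. Its levels were 5.28, 5.25 and 5.35 CPM in WT replicates 1, 2 and 3, from 56, 110 and 98 counts. In MZsmad4a replicates 1, 2 and 3 they were 34.9, 47.2 and 44.7 CPM, from 604, 854 and 850 counts. The WT libraries hardly differed, and the lowest mutant library, replicate 1, was still far above all of them. The means of 5.29 ± 0.0508 and 42.2 ± 6.51 CPM (SD, n = 3 each) differ 7.98-fold, and the fitted log2 fold change was 2.99 (standard error 0.17). Fits without 1 of the 6 libraries kept it between 2.91 and 3.12. With this increase IRX3 passed from below to above the median gene, lying above 76.8% of the tested genes in MZsmad4a embryos. In its share of the family's TPM, IRX3 went from between 3.96% and 4.18% in WT to between 11.3% and 20.2% in MZsmad4a embryos.

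The transcripts counted for IRX3 did not differ detectably in length. The files list 2 transcripts for this identifier, and their mean length, weighted by abundance, was 2151, 2026 and 2128 bases in WT replicates 1, 2 and 3 and 2019, 2048 and 2097 bases in MZsmad4a replicates 1, 2 and 3. The ranges overlapped (exact two-sided permutation test, p = 0.3, where 3 libraries against 3 cannot give a p under 0.1). For IRX1 (ENSDARG00000056594), also with 2 listed transcripts, the mean length was between 1740 and 1743 bases in all libraries.

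irx7, which in zebrafish acts in the early neural plate, was the most abundant member in both genotypes. It had 40.7, 48.8 and 43.7 CPM in WT replicates 1, 2 and 3 and 96.2, 75.8 and 62.8 CPM in MZsmad4a replicates 1, 2 and 3, so every mutant library was above every WT library. The means were 44.4 ± 4.11 and 78.2 ± 16.8 CPM (SD, n = 3 each), a 1.76-fold difference. The log2 fold change of 0.82 (standard error 0.17) reached, in the edgeR quasi-likelihood fit, an adjusted p of 0.0425 (Benjamini-Hochberg, 15720 genes) and thus missed the threshold of 0.01. DESeq2's Wald test on the same counts gave 0.83 with an adjusted p of 0.000631, past the threshold. Leaving out each library in turn gave log2 fold changes of 0.64 to 0.96, the lowest without MZsmad4a replicate 1, with adjusted p of 0.0373 to 0.116 from edgeR's test.

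IRX1 (ENSDARG00000056594), the leading copy of irx1 and a homeodomain factor like irx7, was next in level. It had 32.3, 29.5 and 28.3 CPM in WT replicates 1, 2 and 3 and 78.4, 62.5 and 41.8 CPM in MZsmad4a replicates 1, 2 and 3. Again no mutant library overlapped WT, and again replicate 1 was the highest and replicate 3 the lowest of the mutants. The means were 30.04 ± 2.01 and 60.9 ± 18.4 CPM (SD, n = 3 each), a 2.03-fold difference. On the log2 scale this was 1.02 with a standard error of 0.22. Its adjusted p was 0.0497 in the edgeR fit, short of the threshold of 0.01, and of 0.000397 from DESeq2's Wald test. Without MZsmad4a replicate 1 the log2 value was 0.80, and without MZsmad4a replicate 3 it was 1.23. Over the 6 fits without 1 library its adjusted p ran from 0.0175 to 0.152 in edgeR's test.

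irx5b, a member of the cluster that in RefSeq also holds irx3b, was expressed at a low level. It had 8, 21 and 11 counts in WT replicates 1, 2 and 3 and 18, 28 and 52 counts in MZsmad4a replicates 1, 2 and 3, that is 0.755, 1.002 and 0.600 CPM against 1.04, 1.55 and 2.73 CPM. The highest WT library lay just below the lowest mutant library, and replicate 3 was the highest mutant library, the reverse of irx7 and IRX1. The fitted difference was 1.16 on the log2 scale with a standard error of 0.45 (edgeR, adjusted p = 0.236), and without MZsmad4a replicate 3 it was 0.71. The difference of irx5b did not pass the threshold with these libraries.

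**Figure D3:**
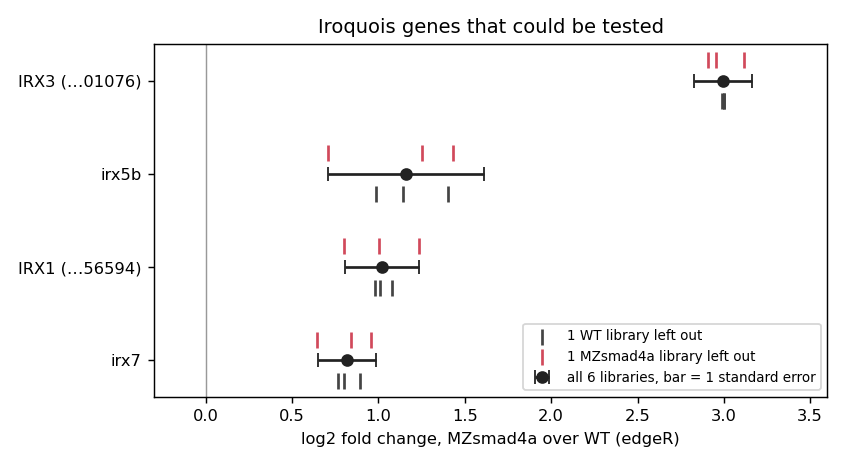
Log2 fold change of MZsmad4a over WT (x axis) from edgeR for the 4 Iroquois genes with enough counts to be fitted (y axis); points are the fit to all 6 libraries with bars of 1 standard error, and ticks are the fits with 1 library left out. IRX3 stays between 2.91 and 3.12, whereas irx7, IRX1 and irx5b lie between 0.64 and 1.43 whichever library is left out.

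The other 7 members had too few counts for the fit. irx4b had 3, 12 and 5 counts in WT replicates 1, 2 and 3 and 6, 5 and 12 counts in MZsmad4a replicates 1, 2 and 3. The other IRX1 copy (ENSDARG00000101831) had 5, 4 and 1 counts in WT and 7, 1 and 4 counts in MZsmad4a embryos. For both genes the genotypes overlapped fully. IRX5 (irx5a) summed to 6 counts over the WT libraries and 3 over the mutant libraries, the other IRX3 copy (ENSDARG00000031138) to 3 and 3, and IRX2 (irx2a) to 4 and 2. These levels were at or under the smallest the depth can show, taken as 3 counts in a library, or between 0.143 and 0.283 CPM. IRX4 (irx4a) had a single count, in MZsmad4a replicate 3. IRX6 (irx6a) had none in any library, which allows a level of up to 0.283 CPM in the shallowest library and covers counting error only.

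Read over all 11 genes, 1 member, the IRX3 copy, was past an adjusted p of 0.01 in edgeR's test, where 0.223% of the tested genes were called higher. Because that gene is the reason for the choice, nothing is read from the count. At an adjusted p under 0.05, irx7 and IRX1 (ENSDARG00000056594) also passed, where 1.26% of the tested genes were called higher. Both calls at 0.05 were lost with scaling by library size only (adjusted p = 0.0607 and 0.0718, edgeR) and in 5 of the 6 fits without 1 library, each of them holding without MZsmad4a replicate 3 (adjusted p = 0.0373 and 0.0175, edgeR). In DESeq2's test at 0.01, these 3 members were called, where 1.78% of the genes were called higher. The genotypes did not overlap for 4 of the 11 genes, all higher in MZsmad4a embryos. These were the 4 tested members, and 11.7% of the tested genes had this pattern. None of the 11 was lower without overlap, where 11.9% of the tested genes were. At an unadjusted p under 0.05 all 4 tested members were higher, where 8.68% of the genes were higher and 8.81% lower. The IRX3 copy is 1 of the members in the DESeq2 count, in the count without overlap and in this last one. Nothing is therefore read from these counts either.

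Where the family has duplicated copies, one copy supplied most of the counts in every library. Of the counts of the IRX1 copies, ENSDARG00000056594 held 98.6% to 99.9% in the 6 libraries, and 99.5% of 4787 counts over all of them (95% Wilson interval 99.3 to 99.7%). Of the counts of the IRX3 copies, ENSDARG00000101076 held 98.2% to 100% per library and 99.8% of 2578 counts in all (99.5 to 99.9%). irx5b held 93.9% of the 147 counts of the irx5 copies (88.8 to 96.7%), with 80%, 91.3% and 84.6% in WT replicates 1, 2 and 3 and 85.7%, 100% and 100% in MZsmad4a replicates 1, 2 and 3, from 10 to 52 counts of the pair. irx4b held 97.7% of the 44 counts of the irx4 copies (88.2 to 99.6%). The second IRX3 copy had 0, 2 and 1 counts in WT replicates 1, 2 and 3 and 3, 0 and 0 counts in MZsmad4a replicates 1, 2 and 3. Similar copies can share reads, which the authors' counting divides by estimation. The expected counts of all 11 members were whole numbers in all 6 libraries (to within 0.005). Summing the copies before the fit left the log2 fold change of irx7 at 0.82 and gave 1.01 for IRX1 (adjusted p = 0.0514) and 0.99 for irx5 (adjusted p = 0.262, both from edgeR's test).

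Ratios between members show how the make-up of the family compared between genotypes. The ratio of irx7 to IRX1 in TPM was 1.96, 2.58 and 2.42 in WT replicates 1, 2 and 3 and 1.93, 1.90 and 2.36 in MZsmad4a replicates 1, 2 and 3, or 2.32 ± 0.322 against 2.06 ± 0.257 (SD, n = 3 each; exact two-sided permutation test, p = 0.2). The ranges overlapped, with MZsmad4a replicates 1 and 2 just below every WT library. With 3 libraries against 3 no p under 0.1 is possible, so the test cannot decide whether this ratio differed. The ratio of IRX1 to IRX3, by contrast, was 7.72, 6.67 and 6.63 in WT and 2.66, 1.59 and 1.15 in MZsmad4a embryos, without overlap, which is given without a test because IRX3 was chosen for its change. IRX1 remained above IRX3 within each mutant library, with 82.6 against 31.0, 68.0 against 42.7 and 43.8 against 38.0 TPM in replicates 1, 2 and 3. The order irx7, IRX1, IRX3 therefore held in all 6 libraries.

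In the RefSeq gene order (assembly GRCz12tu, used only for which genes lie beside each other), the irx genes fall into clusters on chromosomes 7 (irx6a, irx5a, irx3a), 16 (irx4a, irx2a, irx1a), 19 (irx1b, irx4b) and 25 (irx3b, irx5b), with irx7 alone on chromosome 23. None lies on chromosome 10, which carries smad4a. The 3 nearest protein-coding genes on each side of each cluster whose RefSeq symbol was also found among the measured genes came to 30, of which 22 could be tested. Genes measured under another symbol, or without one, were passed over, so nearer genes may be missing. None of the 22 was past 0.01 or 0.05 in edgeR's test in either direction. Over all tested genes, 0.223% were higher and 0.49% lower at 0.01, and 1.26% and 1.67% at 0.05. Nothing is therefore read from this lack of calls. DESeq2 called 1 neighbour higher and none lower at 0.01 (1.78% and 1.94% over all genes it tested). An unadjusted p under 0.05 in edgeR's test was reached by 4 higher neighbours and 1 lower (8.68% and 8.81% over all tested genes). Their log2 fold changes ran from -0.81 to 1.21, and their median was -0.05. rbl2, which encodes a pocket protein of the retinoblastoma family and lies on the irx3b side of its cluster, came nearest to a call, going from 9.53 to 19.0 CPM (edgeR, adjusted p = 0.0516). cbln4, a secreted cerebellin near irx7, had the highest value of the neighbours, 1.21 (adjusted p = 0.282), and faap24, a DNA repair gene beyond irx5b, the lowest, -0.81 (adjusted p = 0.0835). On chromosome 7, aktip, beyond the irx3a end of its cluster, stood at -0.26 (adjusted p = 0.446), and fto, the nearest of these genes on the irx3a side, had too few counts to be fitted. chd9, on the same side and beyond aktip, went from 12.1 to 22.2 CPM (log2 fold change 0.88), with no overlap between the genotypes. cdkal1, on the irx4a side of the chromosome 16 cluster, went from 6.91 to 10.8 CPM (0.65), also without overlap. rbl2 was likewise higher without overlap, and faap24 was lower without overlap. The other tested neighbours overlapped between the genotypes. Over all tested genes, 11.7% were higher without overlap and 11.9% lower. Neither chd9 nor cdkal1 was past an adjusted p of 0.05 in edgeR's test. No change of the neighbours is therefore read from the lack of overlap. Nearest of these genes to irx1b and irx4b, med10, a subunit of the Mediator complex, had -0.19 and ndufs6, a subunit of mitochondrial complex I, had 0.18 (adjusted p = 0.58 and 0.601).

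The other TALE homeobox genes, relatives of the Iroquois genes that include the Meis, Pbx, Pknox and Tgif factors, gave no call. Of 16 identifiers, 8 could be tested, and none passed 0.01 or 0.05 in edgeR's test in either direction. At 0.01, 0.223% of all tested genes were higher and 0.49% lower, and at 0.05, 1.26% and 1.67%. With shares this small, nothing is read from the lack of calls among 8 genes. DESeq2 called none at 0.01 (1.78% higher and 1.94% lower over all genes it tested). At an unadjusted p under 0.05 in edgeR's test, 1 of the 8 was lower (8.81% over all tested genes). Their median log2 fold change was -0.30, beside -0.01 over all tested genes. meis1b was lowest at -1.14 (adjusted p = 0.31) and meis3 highest at 0.36 (adjusted p = 0.734). pbx4, which encodes a partner of Hox proteins, stood at 369.8 CPM in WT against 363.5 CPM in the mutants.

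Genes of the neural plate and of the midbrain-hindbrain boundary, among the places where Iroquois genes act, gave no call at 0.01 in edgeR's test. Over all tested genes, 0.223% were called higher and 0.49% lower. Where in the embryo the Iroquois transcripts lay cannot be told from these pools. Of 33 identifiers, 21 could be tested, and their median log2 fold change was 0.33. The paper reported otx1, six3a and sox2, members of this list, as unchanged or slightly higher in these mutants. Counts of this list are therefore no independent evidence. DESeq2 called 5 higher and 1 lower (1.78% and 1.94% over all genes), and at an unadjusted p under 0.05 in edgeR's test 9 were higher and 1 lower (8.68% and 8.81% over all genes). At an adjusted p under 0.05, 3 passed, all higher, where 1.26% of the tested genes were called higher. These were 1 of the FOXB1 copies, which encode forkhead factors of the neural plate, with 27.6 and 68.3 CPM (log2 fold change 1.31, adjusted p = 0.0105), otx2a, an anterior homeobox gene, with 56.3 and 106.7 CPM (0.92, 0.0123), and sox19a, a SoxB1 gene of the ectoderm, with 380.6 and 512.0 CPM (0.43, 0.0235). The largest and the smallest values of the list belonged to the SIX3 copies, anterior neural genes, at 1.73 (adjusted p = 0.0843) and, for the copy named six3b, -1.66 (adjusted p = 0.0919). The summed level of the list was 1869 to 1974 CPM in WT and 2224 to 2516 CPM in MZsmad4a embryos, without overlap. Whether the higher sum bears on the Iroquois levels at all was not tested. Genes that mark later steps in this tissue were at or near 0, as WNT1, with no counts in WT, and PAX2 and EN2, whose copies had group means of 0 to 0.204 CPM.

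Among 14 tested organizer genes none passed 0.01 in edgeR's test, and their median log2 fold change was -0.05. DESeq2 called 1 higher and 2 lower (1.78% and 1.94% over all genes), and at an unadjusted p under 0.05 in edgeR's test 3 were higher and 4 lower (8.68% and 8.81% over all genes). At an adjusted p under 0.05, 1 was lower, frzb, a secreted Wnt antagonist (-1.02, adjusted p = 0.0152), where 1.67% of the tested genes were called lower. The highest was an OTX2 copy at 1.55 (adjusted p = 0.143) and the lowest shha, the Sonic hedgehog gene of the axial mesoderm, at -1.54 (adjusted p = 0.054). Among 15 tested genes of posteriorizing Wnt, FGF and retinoic acid signals, 1 was called at 0.01 in edgeR's test, cdx4, a caudal homeobox gene, which fell from 179.0 to 69.9 CPM (log2 fold change -1.36, adjusted p = 0.00202), and the median was 0.36. cdx4 also belongs to the list of BMP signaling genes below, so both lists share this call, and the limit given there holds for it. In edgeR's test 0.223% of all tested genes were called higher at 0.01 and 0.49% lower. At 0.05 (1.26% higher and 1.67% lower over all genes), 1 WNT8A copy (ENSDARG00000078507) and wnt11f2, both Wnt ligands, were also higher (0.56 and 0.88) and aldh1a2, which makes retinoic acid, was also lower (-0.66). The other WNT8A copy was at 0.41 (adjusted p = 0.369). DESeq2 called 4 higher and 2 lower (1.78% and 1.94% over all genes), and at an unadjusted p under 0.05 in edgeR's test 4 were higher and 3 lower (8.68% and 8.81% over all genes). Of the 26 tested genes of BMP signaling and its targets, 15 were called lower and none higher, where 0.49% of all tested genes were called lower, and their median was -1.54. DESeq2 called 18 of them lower, where 1.94% of the genes it tested were called lower, and none higher, and at an unadjusted p under 0.05 in edgeR's test 22 were lower, where 8.81% of all tested genes were, and none higher. Genes of this list were known as lower in these libraries when it was drawn up, so its count is no independent evidence. The 8 of smallest p were tbx3a, id3, szl, eve1, bmp4, id1, cdx4 and smad1. tbx3a, a T-box gene, had 24.3 and 0.295 CPM in WT and mutants, and szl, a secreted inhibitor of Chordin proteases, 29.0 and 0.161 CPM. id3 and id1, inhibitors of bHLH factors, went from 67.2 to 11.2 CPM and from 322.2 to 160.1 CPM. eve1, a ventral homeobox gene, went from 122.7 to 35.3 CPM and smad1, a mediator of BMP signals, from 11.5 to 1.11 CPM. bmp4 itself went from 49.4 ± 3.80 to 14.2 ± 1.85 CPM (SD, n = 3 each).

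**Figure D4:**
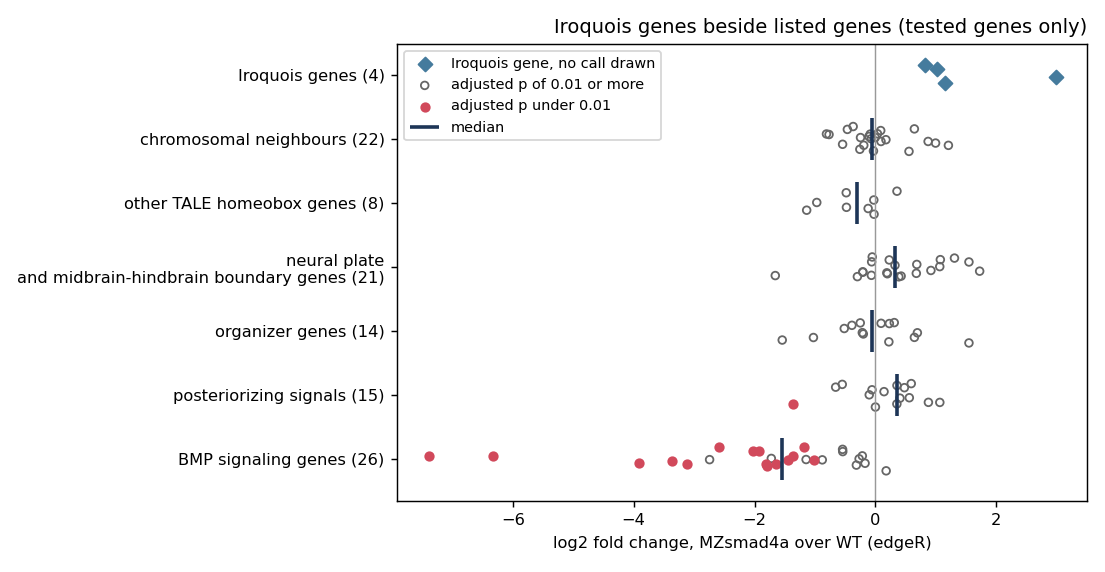
Log2 fold change of MZsmad4a over WT from edgeR (x axis) for each tested gene of the Iroquois family, of its chromosomal neighbours and of the gene lists (y axis, number of tested genes in parentheses); filled circles are past an adjusted p of 0.01, open circles are not, diamonds are Iroquois genes and vertical bars are list medians. The 4 Iroquois genes lie between 0.82 and 2.99, the neighbours between -0.81 and 1.21, and the BMP list around a median of -1.54.

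The 5 genes outside the family whose profile over the 6 libraries came nearest to that of IRX3 were picked by the root mean square distance between log2 CPM values centred on each gene's mean. Nearest was ADAMTS1, a secreted metalloprotease, at a distance of 0.18 on the log2 scale, going from 0.811 ± 0.0527 to 8.37 ± 0.720 CPM (SD, n = 3 each). ENSDARG00000094021, which has no symbol, was at 0.23, with no counts in WT and 1.01 ± 0.123 CPM in MZsmad4a embryos. KCNAB1, a potassium channel subunit, was at 0.29, with 0.133 and 1.58 CPM, TMC1, known as a channel protein of hair cells, at 0.32, with 0.150 and 1.55 CPM, and ENSDARG00000104640 at 0.33, with 0.0159 and 1.07 CPM. At such low levels the distance depends on the prior count of 2 added before taking logarithms. Because the profile is dominated by the step between genotypes, the likeness is a description of that step over 6 libraries and no more.

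**Figure D5:**
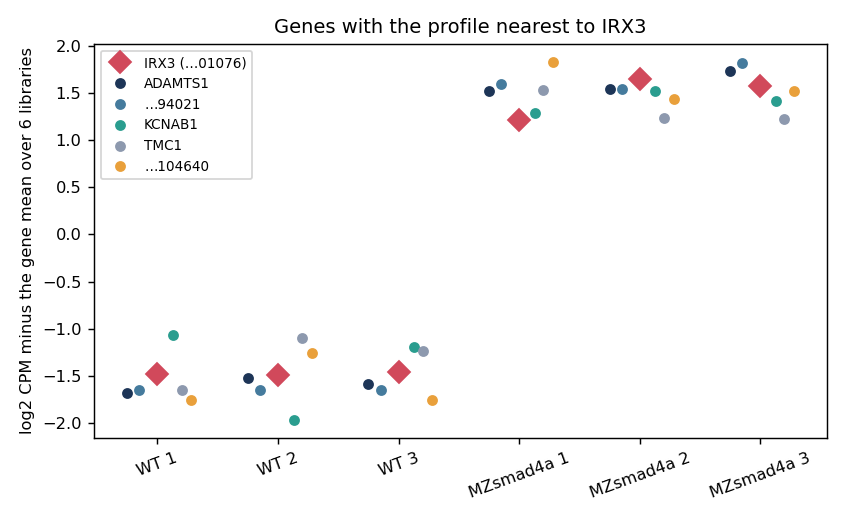
Log2 CPM minus the mean of each gene over the 6 libraries (y axis) for IRX3 (ENSDARG00000101076, diamonds) and the 5 genes nearest to it (circles), by library (x axis). All lie below 0 in the WT libraries and above 0 in the MZsmad4a libraries, and within the mutants IRX3 is lowest in replicate 1.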

How the data were processed

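Bulk RNA-seq of 3 WT and 3 MZsmad4a libraries was used, grouped by the sample labels. The authors removed adapters from paired-end reads with cutadapt, aligned them to GRCz11 with STAR and deposited, per gene, RSEM expected counts (not normalized), TPM and FPKM values and transcript lengths. Whether counting used strand is not given in the sources used here. FPKM values were not used here.

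After rounding, 15720 genes passed filterByExpr and were fitted by genotype alone in edgeR 4.0.16 (R 4.3.3; TMM, glmQLFit, glmQLFTest), with Benjamini-Hochberg adjustment and the study's threshold of 0.01; the study itself used DESeq2. Standard errors are absolute log2 fold changes over the root of F. CPM are expected counts over TMM-scaled totals. DESeq2 1.42.0 and limma 3.58.1 served for alternatives, Python 3.11.15 with scipy 1.17.1 for summaries. The fit was run on simulated counts as a check that large changes are recovered, and no result here rests on that check. Intervals and the level of 3 counts cover counting error only. The study describes its replicates as biological, from different clutches in 3 batches, without saying which libraries share a batch.

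Members and lists were chosen with earlier results of these data known. Named genes are all irx genes, the called or extreme members of each list (at most 8), the called markers, some of the cluster neighbours and the 5 nearest profiles. WNT1, PAX2, EN2, ZIC2, SOX3, pbx4, tbxta, tbx16 and the list genes and markers past 0.05 but not 0.01 were picked for mention after their values were seen. The same holds for the neighbours rbl2, cbln4, faap24, chd9 and cdkal1. A listed copy with no symbol of its own was replaced by every identifier with the shared name. Of 32266 identifiers, 26433 had a symbol. RefSeq positions (GRCz12tu) served only for chromosomes and the order of neighbouring genes, and no coordinates are printed. Alternatives were DESeq2, a replicate block, RLE scaling, library size only, no filter, at least 10 counts in every library, truncated counts, limma on log2(TPM + 1) and log2(TPM + 0.1), an adjusted p under 0.05, summed copies and each library left out.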

Additional observations from a re-analysis of the deposited data

How the results depend on the processing

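The log2 fold change of the IRX3 copy, for which the family was chosen, was 2.68 to 3.01 under the 10 alternatives and 2.91 to 3.12 without 1 library, given as a description only. irx7, IRX1 and irx5b kept their direction under each alternative run, with log2 fold changes of 0.69 to 0.83, 0.85 to 1.04 and 0.40 to 1.18, the last being lowest with limma on log2(TPM + 1), which understates low genes; irx5b gave no value with at least 10 counts in every library. The adjusted p of irx7 and IRX1, under 0.05 in the report, was 0.0616 and 0.0960 with limma on log2(TPM + 1), 0.0668 and 0.104 on log2(TPM + 0.1) and 0.0607 and 0.0718 with library size only, and for IRX1 also 0.0520 with at least 10 counts in every library and 0.0514 with copies summed (edgeR). The number of Iroquois genes called, 1, was 3 with DESeq2 and 3 at an adjusted p under 0.05, and 1 in each leave-one-out fit, the 1 being that IRX3 copy. Over all genes, 35 were higher and 77 lower. DESeq2 called 315 higher and 343 lower, no filter on low counts gave 116 and 167, at least 10 counts in every library 21 and 43, and an adjusted p under 0.05 gave 198 and 263. Leaving out each library gave 8 to 29 higher and 16 to 47 lower, from 5 libraries in place of 6. Library size only gave 24 higher and 105 lower and moved the median log2 fold change of all genes from -0.01 to -0.11; limma on log2(TPM + 1) gave 25 and 90 and on log2(TPM + 0.1) 24 and 94.

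The labels number the libraries 1 to 3 in both genotypes. Deviations from the group means correlated at 0.11, -0.03 and 0.14 between same-numbered libraries, and at -0.20 to 0.08 between differently numbered ones. The values for numbers 1 and 3 were the highest of all pairs and that for number 2 was not, so they do not settle whether the numbers are pairs. The main fit did not take them as pairs. With the replicate block, 7 genes were higher and 22 lower, irx7 was at 0.80 (adjusted p = 0.0882) and IRX1 at 0.97 (adjusted p = 0.0546, edgeR). By these correlations not every library was nearest to its own number. Depth limits the 7 members with 12 counts or fewer in each library, for which no change could be shown.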
